A study of Mus musculus with 4 samples.

Results

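The genes described here are 10 keratins: the keratins of stratified and basal epithelia Krt5, Krt6a, Krt14, Krt15, Krt16 and Krt17, and the keratins of simple, single-layered epithelia Krt7, Krt8, Krt18 and Krt19. They were measured by array in K7M2, a mouse osteosarcoma cell line that spreads readily to the lung. They were found by name among the 18193 named genes of the array, and for each gene the probe set that was brightest on average over the arrays was used. A probe set is a group of short probes that report on one transcript. The genes were picked with the difference between the groups already known, so their differences are described without a test.

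There were 4 arrays, each of K7M2 cells grown in medium with serum. On 1 array the cells over-expressed GFP alone, and on 3 arrays (replicates 1 to 3) they over-expressed ezrinT567A-GFP. Ezrin ties membrane proteins to cortical actin, and T567A replaces its regulatory C-terminal threonine with alanine, which cannot be phosphorylated. GFP was thus common to all groups, and cells without a transgene were not analysed here. The promoter that drives the transgenes, and whether each line is 1 clone or a pool, are not stated in the labels. All values are log2 levels after RMA, which brings the arrays to nearly the same distribution. A difference is the ezrinT567A-GFP mean minus the GFP value, the SD is that of the 3 ezrinT567A-GFP arrays, and the GFP value has no replicate. The labels do not say whether separate cultures were used for the 3 replicates, so the SD may be technical.

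Keratins build the intermediate filaments of epithelial cells. Each filament pairs an acidic type I chain (here Krt14, Krt15, Krt16, Krt17, Krt18 and Krt19) with a basic type II chain (Krt5, Krt6a, Krt7 and Krt8). Dividing basal cells of the epidermis make Krt5 with Krt14 or Krt15, wounded or strongly dividing epidermis makes Krt6a with Krt16 and Krt17, and simple epithelia make Krt8 with Krt18, to which Krt7 and Krt19 are added in ducts and linings. Cells of mesenchymal origin such as osteoblasts use vimentin as their main intermediate filament protein.

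Markers of that lineage were mixed in level. Vim, the vimentin gene, was at 13.06 in GFP and averaged 13.04 with an SD of 0.01 (n = 3) under ezrinT567A-GFP, and the type I collagen genes Col1a1 and Col1a2 were at 11.31 and 12.28 in GFP and at 11.27 and 12.42 in ezrinT567A-GFP. The matrix gene Sparc was at 11.33 in GFP, while the later osteoblast marker Ibsp (2.78) and Postn (2.88) were near background on all 4 arrays, Alpl was dim (3.63) and the osteoblast factor Sp7 was at 5.05. Runx2, Spp1 and Bglap, further osteoblast markers, were not analysed here. The over-expressed gene itself did not separate the groups clearly: both Ezr probe sets gave differences of 0.01 and 0.33, and a transgene outside their reach would not be seen. As a guide to background, 39 olfactory receptor genes, which these cells are not known to use, had medians of 2.55 to 2.60, and their 95th percentile lay between 3.36 and 3.54 on the 4 arrays. Levels under that percentile are called near background below. Probe sets differ in brightness for the same amount of RNA, so a level is a rough guide and levels of different genes are not ranked. The mean of the hybridization spike-ins was 9.32 for GFP, against 10.1, 11.1 and 10.4 for the replicates in order. The 18S rRNA probe sets stood at 9.09 for GFP, against 7.65, 11.3 and 7.76.

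The keratins showed separate patterns. Krt5, Krt6a, Krt14, Krt16 and Krt17 were clearly above background in GFP cells and were 3.03-fold to 11.7-fold lower in ezrinT567A-GFP cells. Krt15, the remaining basal keratin, and the simple keratins Krt7, Krt18 and Krt19 were near background in GFP cells and differed from them by at most 0.11. Krt8 lay between, just above background, and was 1.33-fold lower. Because the RNA came from whole cultures, fewer keratin-positive cells and less keratin RNA per cell cannot be told apart.

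**Figure D1:**
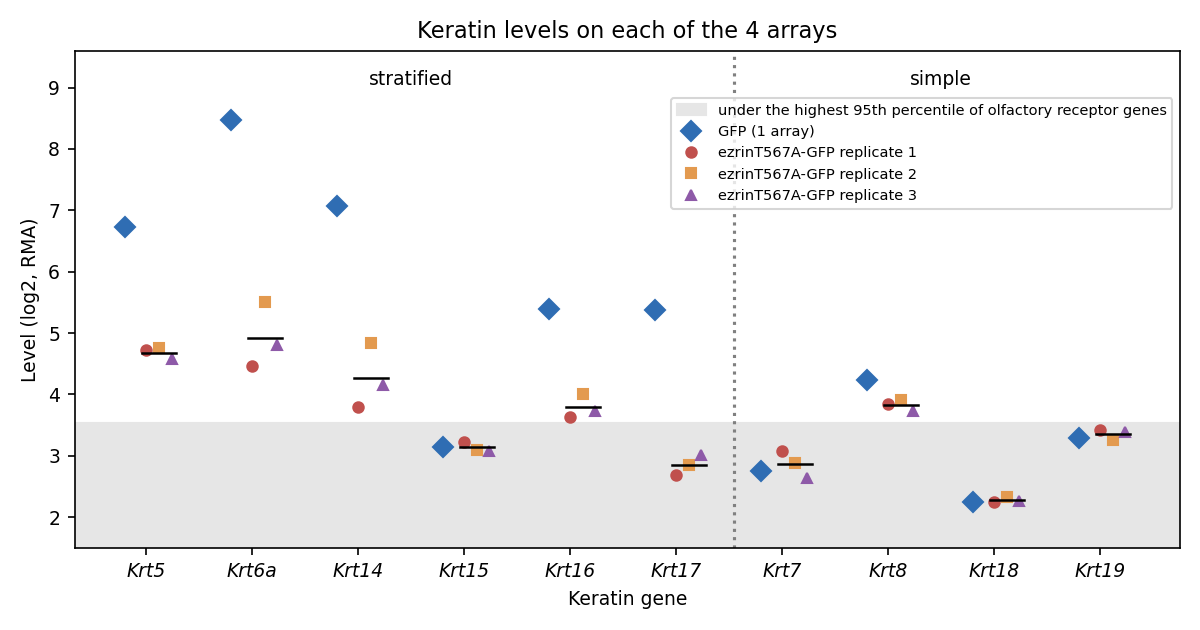
Level of each keratin (log2 after RMA, vertical axis) on the GFP array (diamond) and on the 3 ezrinT567A-GFP arrays (circle, square, triangle), with a line at their mean. The shaded range lies under 3.54, the highest 95th percentile of 39 olfactory receptor genes. Krt5, Krt6a, Krt14, Krt16 and Krt17 are far above their ezrinT567A-GFP values in GFP, while Krt15, Krt7, Krt18 and Krt19 stay within the shaded range on all 4 arrays.

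Among the basal keratins, Krt5, the type II chain of basal epidermal cells (chromosome 15, 101707069 to 101712905, GRCm38.p6), was at 6.73 in GFP and at 4.72, 4.75 and 4.57 in replicates 1, 2 and 3. The 3 ezrinT567A-GFP arrays lay close together and did not overlap with GFP. The difference was -2.05 with an SD of 0.10 (n = 3), a 4.14-fold lower level, and the ezrinT567A-GFP values stayed above background.

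Krt14, its type I partner (chromosome 11, 100203162 to 100207510), was at 7.07 in GFP and at 3.80, 4.83 and 4.15 in the 3 replicates. Every ezrinT567A-GFP array was far below GFP, with replicate 2 the highest. The difference was -2.80 with an SD of 0.52 (n = 3), a 6.98-fold lower level. Within each array, the Krt5 difference was less negative than the Krt14 difference, by 1.25, 0.26 and 0.75 (mean 0.75, SD 0.49, n = 3). The partners were thus lower by unequal amounts on these probe sets, with a spread between arrays that was wide beside the gap.

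Krt15, the alternative type I partner in basal cells and a marker of hair follicle stem cells (chromosome 11, 100131759 to 100135949), was at 3.15 in GFP and at 3.23, 3.10 and 3.08 in the replicates. The groups overlapped, and all 4 values were near background. The difference of -0.01 (SD 0.08, n = 3) was smaller than the spread between replicates.

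By the chosen probe sets, the largest difference belonged to the keratins of activated epidermis. Krt6a, the type II chain of wounded epidermis and of nail and hair follicle companion layers (chromosome 15, 101689928 to 101694305), was at 8.47 in GFP and at 4.46, 5.50 and 4.80 in the replicates. The differences on the 3 arrays were -4.01, -2.98 and -3.68, so all were far below GFP, and replicate 2 was again the highest of them. The mean difference was -3.55 with an SD of 0.53 (n = 3), an 11.7-fold lower level. With each gene taken by its brightest probe set, it ranked 3 from the lowest among the 18193 genes. Another bright Krt6a probe set gave -1.75 (SD 0.22, n = 3), so this size and rank belong to the chosen probe set.

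Krt16, a type I partner of Krt6a (chromosome 11, 100246091 to 100248902), was at 5.39 in GFP and at 3.64, 4.01 and 3.73 in the replicates. The groups did not overlap, and the ezrinT567A-GFP values were just above background. The difference was -1.60 with an SD of 0.20 (n = 3), a 3.03-fold lower level.

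Krt17, a further type I partner that also marks hair follicles and glands (chromosome 11, 100256215 to 100261029), was at 5.38 in GFP and at 2.68, 2.85 and 3.01 in the replicates. On all 3 ezrinT567A-GFP arrays it was near background, so its difference of -2.54 (SD 0.17, n = 3), 5.80-fold, has no measured lower end. Within each array, the Krt6a difference minus the Krt16 difference was -2.25, -1.60 and -2.01 (mean -1.95, SD 0.33, n = 3). That gap belongs to the brightest Krt6a probe set: with the other Krt6a probe sets it was -0.15 (SD 0.05, n = 3) and 0.31 (SD 0.04, n = 3). The 0.31 rests on a Krt6a probe set that was near background on all 3 ezrinT567A-GFP arrays, so its size is not certain. No gap is given against Krt17, whose lower end was not measured.

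By the chosen probe sets, replicate 2 had the highest Krt6a, Krt14 and Krt16 values of the ezrinT567A-GFP arrays. On another Krt14 probe set replicate 3 was the highest (3.40, 3.51 and 3.59), as it was for Krt17 (2.68, 2.85 and 3.01). Krt5 was nearly even in replicates 1 and 2 (4.72 and 4.75). Replicate 2 also had the highest spike-in and 18S rRNA signals. The part of those signals in the keratin values was not tested. Without replicate 2 the differences of Krt6a, Krt14 and Krt16 were -3.84, -3.09 and -1.71, and the stratified median was -2.31.

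The simple keratins showed no difference of that size. Krt8, the type II chain of simple epithelia (chromosome 15, 101996711 to 102004342), was at 4.24 in GFP and at 3.85, 3.91 and 3.73 in the replicates. The groups did not overlap, with a difference of -0.42 and an SD of 0.09 (n = 3). Its further probe sets did not follow: they gave 0.32 (SD 0.22, n = 3) and 0.05 (SD 0.29, n = 3), from GFP levels of 3.34 and 3.29, near background. The sign of the Krt8 difference therefore depends on the probe set.

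Krt18, the partner of Krt8 (chromosome 15, 102028216 to 102032026), was at 2.25 in GFP and at 2.25, 2.33 and 2.26 in the replicates. Krt7, a type II keratin of ducts (chromosome 15, 101412403 to 101427806), was at 2.75 in GFP and at 3.07, 2.88 and 2.64. Krt19, a small type I keratin of ductal and some basal cells (chromosome 11, 100140810 to 100145926), was at 3.29 in GFP and at 3.42, 3.26 and 3.38. All these genes were near background in GFP, their groups overlapped, and their differences of 0.03, 0.11 and 0.06 were within their SDs of 0.04, 0.22 and 0.08. A decrease in a gene that is not above background would not be detectable here, nor would a rise that stayed near background.

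**Figure D2:**
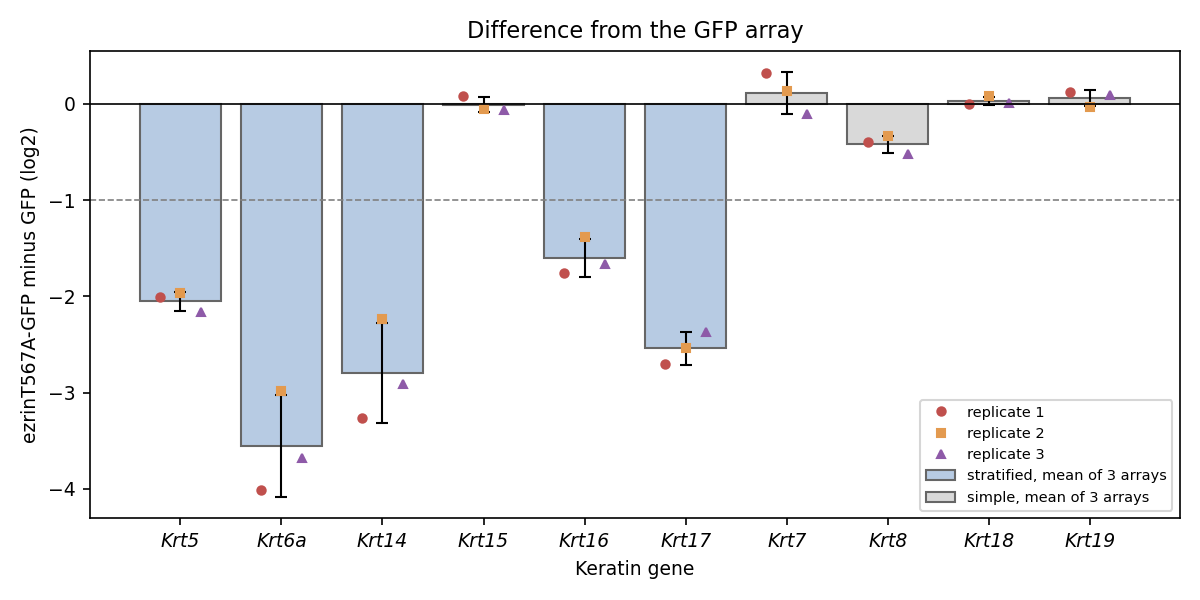
Difference from the GFP array (log2, vertical axis) for each keratin: bars give the mean of the 3 ezrinT567A-GFP arrays, error bars their SD, and symbols the single arrays. The dashed line marks a 2-fold lower level. Krt5, Krt6a, Krt14, Krt16 and Krt17 lie below it on every array, while Krt15 and the simple keratins do not reach it.

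As groups, the 6 stratified keratins had a median difference of -2.29, with array medians of -2.36, -2.10 and -2.26, and the 4 simple keratins one of 0.05, with array medians of 0.06, 0.03 and -0.05. The gap between the group medians was -2.42, -2.13 and -2.22 on the 3 arrays (mean -2.26, SD 0.15, n = 3), and -2.34 between the group medians themselves. At least 2-fold lower were 5 of the 6 stratified and 0 of the 4 simple keratins, where 0.704% of all 18193 genes were. All 3 arrays lay below GFP for 5 of 6 stratified keratins and 1 of 4 simple ones, where this held for 25.6% of all genes. The keratins were chosen on this contrast, so these counts describe them and test nothing. The median over all genes was 0.0324. Since 3 of the 4 simple keratins were near background in GFP, they had little room to be lower.

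The array carried 18 probe sets that name these keratins: 17 name 1 gene and 1 names both Krt14 and Krt17. For 4 genes there was more than 1 probe set of their own. The further Krt6a probe sets were both lower on all 3 arrays, by -1.75 (SD 0.22, n = 3) from a GFP level of 6.85 and by -1.29 (SD 0.24, n = 3) from 3.85. Direction was thus shared by all 3 Krt6a probe sets, while the size ran from 2.44-fold to 11.7-fold. The probe set with the smallest size was near background on all 3 ezrinT567A-GFP arrays, so that size has no measured lower end.

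For Krt14, a second bright probe set was at 6.04 in GFP and at 3.40, 3.51 and 3.59 in the replicates. The difference was -2.54 (SD 0.10, n = 3), with replicates 1 and 2 near background, so its size has no sure lower end. The chosen Krt14 probe set is of a kind whose probes can match related transcripts, and this second one is not, so the lower Krt14 level does not rest on the first alone. The last Krt14 probe set (2.92 in GFP, difference 0.08) and a second for Krt17 (2.70 in GFP, difference -0.20) were near background on all 4 arrays and carry little information. The probe set naming both Krt14 and Krt17 was 3.49 in GFP and 3.65, 3.76 and 3.91 in the replicates, slightly higher by 0.28 (SD 0.13, n = 3), with GFP near background. Krt14, Krt16 and Krt17 are close relatives in sequence, as are Krt6a and Krt6b, and signal shared between relatives cannot be separated with these values.

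**Figure D3:**
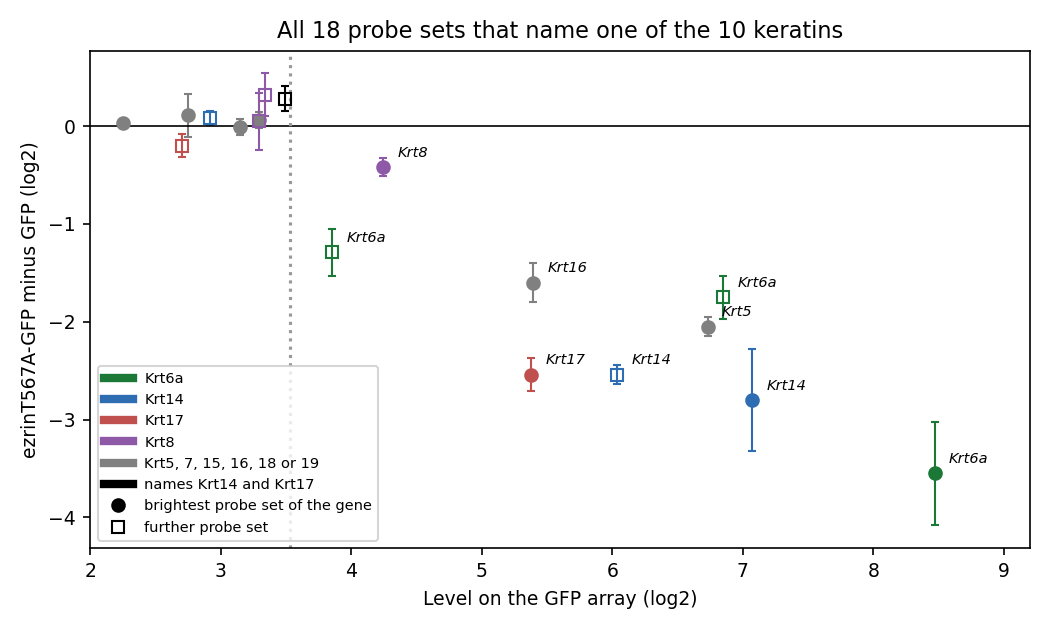
Difference from GFP (log2, vertical axis, mean of 3 arrays with SD) against the level on the GFP array (log2, horizontal axis) for the 18 probe sets that name the keratins. Filled circles are the brightest probe set of each gene and open squares the others. The dotted line marks 3.53, the 95th percentile of olfactory receptor genes on the GFP array: every probe set to its left lies within 0.32 of 0.

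The lower keratins sat side by side in the genome. On chromosome 11, which held 24 measured keratin genes, Krt14, Krt16 and Krt17 are consecutive keratin genes in the annotation of GRCm38.p6. On chromosome 15, also with 24, Krt6b, Krt6a and Krt5 are consecutive. On one side, the keratin genes flanking these runs were Krt42 beyond Krt17, with a difference of 0.10 from a GFP level of 6.68, and Krt71 beyond Krt5, with 0.03 from 4.42. On the other side, Krt9 beyond Krt14 was not analysed here, and Krt19, the next, was near background in GFP. The next measured keratin beyond Krt6b was Krt75, with -0.40 from 4.38, and all 3 arrays were below GFP. Krt42 was itself above background on all 4 arrays, and none of its ezrinT567A-GFP values (6.89, 6.78 and 6.68) lay below GFP. Within its run, Krt6b, the near copy of Krt6a, was at 3.73 in GFP and at 3.02, 2.79 and 3.09 in the replicates, all 3 near background. Its difference was -0.76 (SD 0.16, n = 3), with limma adjusted p = 0.240 over all genes.

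**Figure D4:**
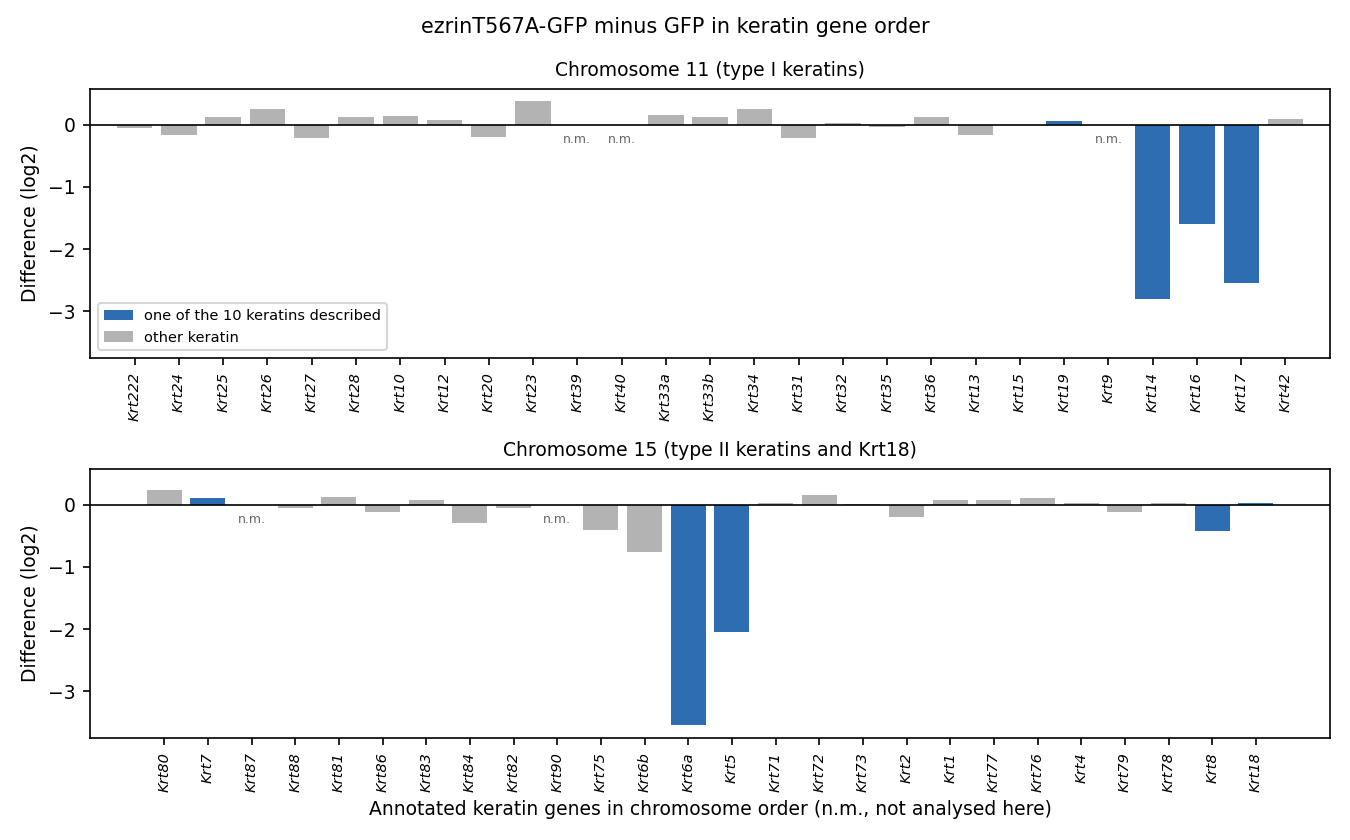
Difference from GFP (log2, vertical axis) for keratin genes placed in their order along chromosome 11 (top) and chromosome 15 (bottom), with even spacing. Blue bars are the 10 keratins described and grey bars other keratins. The bars below -1 are Krt14, Krt16 and Krt17 on chromosome 11 and Krt6a and Krt5 on chromosome 15, each set without a gap between measured keratin genes.

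The upstream sequences of Krt5, whose level was lower, and Krt8, its simple counterpart of the same keratin type, are shown to place them. Krt8 lay between the patterns, and the sign of its difference depends on the probe set. It therefore does not stand for the keratins close to GFP. Windows were found by symbol for 5 of the 10 keratins. Each run is the 250 bases just before the annotated start of the gene, from RefSeq (GRCm38.p6), 5′ to 3′ on the strand of the gene, and both genes are on the minus strand. The Krt5 window is chr15:101712906-101713155 and the Krt8 window chr15:102004343-102004592. Capitals mark the letters ATAAAA, which resemble the core promoter element that positions transcription and start 29 bases before the start of Krt5.
Krt5: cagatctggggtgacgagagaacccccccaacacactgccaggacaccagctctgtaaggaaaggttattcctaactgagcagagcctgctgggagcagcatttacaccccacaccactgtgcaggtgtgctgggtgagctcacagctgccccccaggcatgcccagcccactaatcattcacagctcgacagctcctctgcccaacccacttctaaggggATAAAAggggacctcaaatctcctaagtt
Krt8: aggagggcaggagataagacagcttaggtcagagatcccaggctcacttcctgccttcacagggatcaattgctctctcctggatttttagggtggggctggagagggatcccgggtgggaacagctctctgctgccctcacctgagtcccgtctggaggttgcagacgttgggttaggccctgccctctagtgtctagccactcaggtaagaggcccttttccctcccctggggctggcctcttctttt
ATAAAA is not in the Krt8 window. It is in that of Krt7, a simple keratin near background in both groups, where it starts 7 bases before the gene. On either strand, it was in 17% of all 32851 such windows. The other motifs searched were TATAAA (the TATA box), TGANTCA (AP-1), GGGCGG (the GC box) and GCCNNNGGC (AP-2), found in 12.4%, 6.75%, 32.7% and 13.7% of all windows. The first of these can overlap the letters in capitals. None of these 4 was in either window shown, which says only that these letters are not in these 250 bases. Of the windows searched but not shown, that of Krt7 held GC box and AP-2 letters and that of Krt18 held AP-2 letters.

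The remaining keratins lay close to GFP. Of 38 other keratin genes, 15 lay below and 23 above GFP, the median difference was 0.03 beside 0.0324 for all genes, and 0 were 2-fold lower or higher, where 0.704% and 0.973% of all genes were. All 3 arrays lay below GFP for 12 of them and above it for 10, where 25.6% and 32.5% of all genes did. After Krt6b, the genes furthest from GFP were Krt75, a hair follicle companion layer keratin, at -0.40 (SD 0.09, n = 3), Krt23 at 0.38 (SD 0.18, n = 3) and Krt84, a hair keratin, at -0.30 (SD 0.05, n = 3). On all 4 arrays 17 of the 38 genes were above the olfactory receptor percentile. None of the 38 (0) had an adjusted p under 0.05 when limma was fitted over all genes, and their lowest adjusted p was 0.240. The same test passed 0 of all 18193 genes (0%), with 2540 (14%) at an unadjusted p under 0.05, so it gave no call against which these genes could be set.

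Regulators of keratin genes differed from GFP by between -0.38 and 0.31 by the brightest probe set of each. Of 19 measured, 8 were lower and 11 were higher. Their median was 0.07, beside 0.0324 for all genes. Where limma called 0 of all 18193 genes, it called 0 of these 19 in either direction (lowest adjusted p = 0.318). Tfap2a, an AP-2 factor of surface ectoderm, was at 5.00 in GFP and at 4.58, 4.58 and 4.69 in the replicates. The difference was -0.38 (SD 0.06, n = 3), but its probe sets ran from -0.38 to 0.14, so its sign depends on the probe set. Trp63, the master regulator of stratified epithelia, was dim, at 3.66 in GFP and at 3.17, 3.59 and 3.28, so that it was near background on 2 of the 3 ezrinT567A-GFP arrays. Klf4, which acts in epidermal differentiation, was 0.31 higher (SD 0.27, n = 3), and Grhl2, a factor of epithelial junction genes, 0.26 higher (SD 0.38, n = 3), within its spread. Grhl2 probe sets ran from -0.10 to 0.26.

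Proteins that anchor keratin filaments were mixed, with 8 of 13 genes lower and 5 higher. Their median was -0.10, beside 0.0324 for all genes. Where limma passed 0 of all 18193 genes, it passed 0 of these 13 (lowest adjusted p = 0.257). By the brightest probe set of each gene, Pkp1, a desmosomal plakophilin of stratified epithelia, had the largest difference of them, from 6.08 in GFP to 5.07, 5.46 and 5.18, or -0.84 (SD 0.20, n = 3). The keratin-binding Eppk1 differed by -0.50 (SD 0.22, n = 3) from a near-background 3.26, and the desmosomal Jup by -0.25 (SD 0.12, n = 3). Macf1, a linker of actin and microtubules, was 0.27 higher (SD 0.23, n = 3). Dsp, the desmoplakin gene, whose product ties keratins to desmosomes, depended on the probe set. The chosen one differed by -0.15 (SD 0.09, n = 3) from 3.77 in GFP. Another was at 4.92 in GFP and at 1.81, 3.21 and 2.17 in the replicates, a difference of -2.52 (SD 0.73, n = 3), and the last was at 4.83 and at 2.27, 3.71 and 2.47, a difference of -2.01 (SD 0.78, n = 3). Both lay below GFP on every array, with replicate 2 the highest. The first of these was near background on all 3 ezrinT567A-GFP arrays and the last on 2, so neither size has a sure lower end. Probe sets of Dst, a plakin gene, ran from -1.06 to 0.06, the lowest being near background on all 3 ezrinT567A-GFP arrays. Plec, the plectin gene, which is not specific to epithelia, differed by 0.05 (SD 0.12, n = 3).

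Other intermediate filament genes had 8 of 15 lower, 7 higher and a median of -0.02, beside 0.0324 for all genes. Where limma passed 0 of all 18193 genes, it passed 0 of these 15 (lowest adjusted p = 0.285). Vim, given above, differed by -0.02. The nuclear lamin genes Lmna and Lmnb1 differed by -0.43 (SD 0.11, n = 3) and -0.41 (SD 0.17, n = 3), and Nes, the nestin gene, by 0.33 (SD 0.39, n = 3). The neurofilament gene Nefl differed by -0.31 (SD 0.31, n = 3), near background on all 4 arrays. By the brightest probe sets, the largest difference in size among these 15 genes was that of Lmna. All probe sets of Lmna ran from -0.46 to -0.07, and those of Lmnb1 from -0.78 to -0.41.

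Other markers of basal keratinocytes were mostly lower by their brightest probe sets. Of 11 measured 10 were lower on all 3 arrays, where 25.6% of all genes were, 3 of them at least 2-fold, where 0.704% were, and the median was -0.36. These were Perp, a desmosome-associated p53 target (5.07 in GFP, difference -2.79, SD 0.21, n = 3), Itga6, the laminin-binding integrin alpha 6 (8.14 in GFP, difference -2.47, SD 0.19, n = 3), and Lamb3, a chain of laminin-332 (7.56 in GFP, difference -1.94, SD 0.41, n = 3). Perp was near background on all 3 ezrinT567A-GFP arrays, so its difference has no measured lower end. Sfn, the epithelial 14-3-3 protein, differed by -0.83 (SD 0.11, n = 3). Itgb4, the partner of Itga6 in hemidesmosomes, went the other way, from 7.63 in GFP to 8.09, 8.03 and 7.96. Where limma passed 0 of all 18193 genes, it passed 0 of these 11 (lowest adjusted p = 0.146). The list was drawn up with these differences partly known, so its counts describe it and test nothing. Of the lower genes, Col17a1 and Dsc3 were near background on all 4 arrays. Probe sets of Fgfr3 ran from -0.36 to 0.22 and those of Lama3 from -0.34 to 0.03, so their sign depends on the probe set.

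Summed on the linear scale over the 11 genes, the basal keratinocyte markers were at 854 in GFP and at 462 to 516 in ezrinT567A-GFP. Such sums add probe sets of unlike brightness, so the bright genes weigh most. Here these were Itga6 and Lamb3, which were lower, and Itgb4, which was higher, all given above. Among the defining members of that list, Col17a1 and Dsc3 were near background on all 4 arrays (3.25 and 3.25 in GFP) and Trp63 was dim. Itga6, Itgb4 and Lamb3 were bright in GFP. General epithelial markers summed to 237 in GFP and 187 to 224 in ezrinT567A-GFP. Of the 13, 9 were lower, and the median was -0.05, beside 0.0324 for all genes. Of these Cdh1, the epithelial cadherin, differed by -1.28 (SD 0.43, n = 3) from a dim 4.21, Cldn4 by -0.65 (SD 0.21, n = 3) from 3.75, Epcam by -0.43 (SD 0.13, n = 3) from 5.48 and Spint1 by -0.28 (SD 0.12, n = 3) from a near-background 2.94. Cdh1 and Cldn4 were near background on all 3 ezrinT567A-GFP arrays, so their differences have no measured lower end. Whether a share of epithelial cells in the GFP culture has a part in the keratin levels was not tested.

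Markers of further cell types had medians close to 0. The 7 osteoblast genes measured had a median of 0.03 and summed to 10133 in GFP and 9968 to 10438 in ezrinT567A-GFP, with differences of -0.27 (SD 0.11, n = 3) for Sparc, 0.26 (SD 0.10, n = 3) for Sp7 and 0.04 (SD 0.20, n = 3) for Postn. Leukocyte markers had a median of 0.08 over 6 genes, with Ptprc, the pan-leukocyte CD45 gene, near background on all 4 arrays (2.22 in GFP) and Csf1r bright in both groups (11.91 in GFP, 12.06 in ezrinT567A-GFP). Cd3e differed by 0.16 (SD 0.13, n = 3) and Itgam by 0.10 (SD 0.21, n = 3). Endothelial markers had a median of 0.05 over 5 genes, with Pecam1 near background (2.52 in GFP). Differences were -0.24 (SD 0.06, n = 3) for Cdh5, 0.05 (SD 0.20, n = 3) for Kdr and -0.09 (SD 0.09, n = 3) for Emcn. Cdh5 probe sets ran from -0.24 to 0.20.

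**Figure D5:**
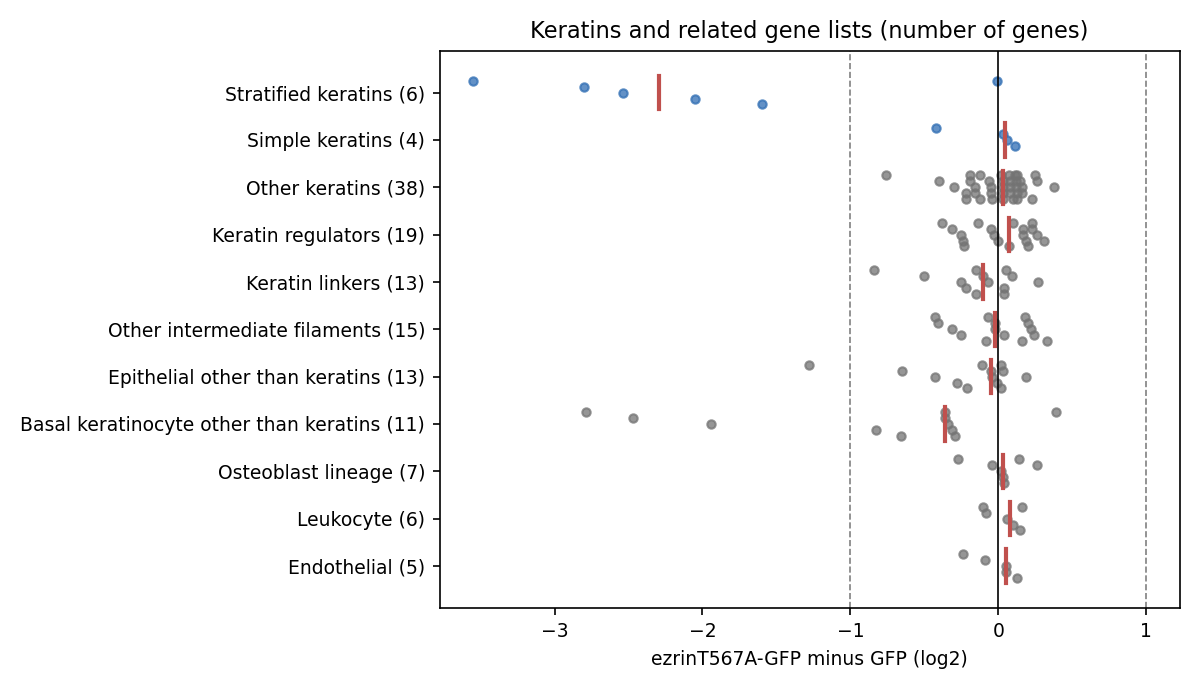
Difference from GFP (log2, horizontal axis) for each gene of the keratin groups and related lists, 1 point per gene, by its brightest probe set, with a red line at the median of each list and dashed lines at 2-fold. The stratified keratins have a median of -2.29, against 0.05 for the simple and 0.03 for the other keratins, and only the basal keratinocyte list (median -0.36) and Cdh1 among the epithelial markers hold further points below -1.

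Genes whose profile over the 4 arrays was most like that of a keratin were sought among 9096 genes above the median level. The measure was the root mean square distance of their centred log2 values. The level was the mean over the 4 arrays, GFP included. Of the keratins described, only Krt5 and Krt6a passed it, and only through their GFP values. Krt14, Krt16, Krt17 and the remaining keratins could thus not appear as neighbours. For Krt14 the nearest were Krt6a (0.33), the chemokine gene Ppbp (0.35), Hsd11b1, which regenerates active glucocorticoid (0.38), the anti-Müllerian hormone receptor Amhr2 (0.41) and Krt5 (0.48). For Krt5 they were the calcitonin receptor partner Ramp1 (0.15), the collagenase Mmp13 (0.19), U90926 (0.23), Itga6 (0.23) and the sulfatase Sulf2 (0.29). For Krt17 they were Mmp13 (0.18), Itga6 (0.24), Krt5 (0.28), the chemokine receptor Ackr3 (0.33) and Ppbp (0.35). With 4 arrays, 1 of them GFP, such likeness says mainly that the genes were lower than GFP by a like amount.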

How the data were processed

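RNA from 4 K7M2 samples was labelled by the one-cycle Affymetrix assay, per the labels' protocols. The authors deposited log2 expression values per probe set, made with RMA per the submitters' processing notes. The software that ran it is not given in the sources used here. The log2 scale was read from the values (1.18 to 13.7). The number of arrays limits the precision.

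Of 45101 probe sets, 34958 had 1 gene symbol in the platform annotation, 932 had several and 9211 were not listed. Control probe sets were left out. Each of 18193 genes took its probe set with the highest mean over the 4 arrays. Gene order, positions and upstream sequences came from RefSeq tables of GRCm38.p6.

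Groups followed the over-expression label. Limma 3.58.1 in R 4.3.3 (lmFit, eBayes with a mean trend) compared ezrinT567A-GFP with GFP over all genes, two-sided, with Benjamini and Hochberg adjustment at 0.05. All 2 residual degrees of freedom came from the ezrinT567A-GFP arrays, and GFP was assumed to vary like them. The script was tested on simulated data in which GFP varied like the other arrays, so that test says nothing about this assumption. The keratins and all gene lists were chosen with earlier results of these data known. Genes were named by rule: all 10 keratins, other keratins 2-fold apart or among the 4 largest differences, the 4 largest differences of each list by the brightest probe set, some of the brightest markers, and the 5 genes nearest in profile to Krt5, Krt14 and Krt17. Some further list members were named after their values were seen: Plec, Vim, Itgb4, Col17a1, Dsc3, Fgfr3, Lama3, Dsp, Dst, Ibsp and Alpl. Krt42 and Krt71 were named as neighbours in gene order. Figures were drawn with matplotlib 3.10.9.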

Additional observations from a re-analysis of the deposited data

How the results depend on the processing

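The stratified median was -2.29 as reported, -1.68 when all probe sets of a gene were averaged and -2.80 with genes above the median level only, where Krt5 and Krt6a were the 2 keratins left and no simple keratin had a value. Their means over the 4 arrays (5.19 and 5.81) passed the median level of 5.04 only through their GFP values, so that setting says nothing about stability. The gap between the stratified and simple medians was -2.34 as reported and -1.72 with averaged probe sets. In that setting the difference was -2.20 for Krt6a, -1.76 for Krt14, -1.37 for Krt17 and -0.02 for Krt8. Near-background probe sets enter the mean of Krt14, Krt17 and Krt8, while for Krt6a a bright further probe set had a smaller difference. Leaving out each ezrinT567A-GFP replicate in turn gave -2.31 to -2.26 for the stratified median, 0.02 to 0.06 for the simple median and -2.37 to -2.28 for the gap. The Krt15 difference was -0.06 without replicate 1 and turned from -0.01 to 0.01 without replicate 2 and to 0.02 without replicate 3, all inside its spread. Over all genes 128 were at least 2-fold lower, and 83 with genes above the median level only, a setting that tests 9096 genes. Limma's count past an adjusted p of 0.05 was 0 as reported, 34 once the arrays were quantile normalized, 30 once they were centred on their medians, 6 with averaged probe sets, 3 with genes above the median level only and 9 with a robust prior, and 0 without each replicate in turn, without a mean trend or with plain _at probe sets only. The cause was not tested. Krt5 and Krt17 were among the 34 and the 30, Krt17 was among the 9, and none of the 10 keratins was among the 6 or the 3. Of these keratins, the setting with genes above the median level only held Krt5 and Krt6a alone, so the others could not be called in it. Being chosen on this contrast, the keratins are no independent evidence. No paired analysis was possible because the GFP group has 1 array and its label carries no replicate number. Without a detection value per probe set, levels near background cannot be told from absence.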
